A study of Mus musculus with 9 samples.

Results

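The genes described here are 36 members of the unfolded protein response and of the ATF4 transcriptional program, chosen by name from a list. This list and the others used here were made with earlier results of these data known. All 36 members are among the 24312 gene symbols of the expression table. They comprise 4 genes for ER stress sensors and Xbp1, 10 genes of the ATF4 arm, 15 ER chaperones and folding enzymes, and 7 genes of ER-associated degradation. RNA-seq had been run on liver macrophages that were isolated by cell sorting with low Ly6C and positive F4/80 staining. The mice were WT and, in the study, male C57BL/6J animals, 6 to 12 weeks old when CDA-HFD feeding began. The age of the mice at sampling was not given. They were fed CDA-HFD for 10 weeks (CDA-HFD 10w), CDA-HFD for 7 weeks (CDA-HFD 7w) or a normal diet (ND), with 3 libraries per group, each from a different animal. CDA-HFD is a choline-deficient high-fat diet with defined amino acids that produces steatohepatitis and then fibrosis. No group carried a transgene or a deletion, and the 2 CDA-HFD groups share the ND libraries as their reference.

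Proteins that enter the secretory pathway fold in the endoplasmic reticulum (ER). When unfolded proteins accumulate there, the sensors PERK, IRE1 and ATF6 start the unfolded protein response. PERK, like the kinases GCN2, PKR and HRI that sense other stresses, phosphorylates the translation factor eIF2alpha, which lowers protein synthesis while favouring translation of ATF4. ATF4 then induces genes for amino acid supply and for stress control. IRE1 splices Xbp1 mRNA so that it encodes an active factor, and ATF6 is cleaved to release one. Both factors mainly raise chaperones and the machinery that extracts misfolded proteins for degradation. The steps at the level of phosphorylation, translation, splicing and cleavage are not seen in the values used here, which are mRNA levels per gene.

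Values are in FPKM, a level scaled by transcript length and by the number of mapped reads. Differences were tested with limma on log2(FPKM + 1), and a gene is called higher or lower where its Benjamini-Hochberg adjusted p over all 11783 tested genes was below 0.05. This scale understates the change of genes near 1 FPKM. The estimated depth was 5810000 to 6150000 reads in CDA-HFD 10w, 5440000 to 5620000 in CDA-HFD 7w and 5350000 to 5810000 in ND libraries. The study removed duplicate reads from single-end data, so that each start position contributes no more than 1 read on either strand. That sets an upper limit of 325 to 344 FPKM in CDA-HFD 10w, 356 to 368 in CDA-HFD 7w and 344 to 374 in ND libraries, and compresses differences of abundant genes. Hspa5, the most abundant member, stood at 63.3% to 76.8% of that limit, Atf4 at 13.9% to 32.5% and Psat1 at 0.645% to 9.20%. Folds of the abundant chaperones are therefore given also after a correction for this limit, where it changes a call or the size.

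Of the 36 members, 34 passed the filter of at least 1 FPKM in at least 3 libraries, and Chac1 and Phgdh did not. Against ND, the mean of both CDA-HFD groups was higher for 11 members and lower for 3, where 22.8% of all tested genes were called higher and 24.3% lower. The ATF4 arm held 6 of the 11 members called higher and none called lower. Its median log2 fold change was 0.76, beside 0.02 for the chaperones, 0.08 for the degradation genes, -0.37 for the 4 sensor genes and -0.03 for all tested genes. In 9 members all 6 CDA-HFD libraries lay above all 3 ND libraries, which was the case for 19.3% of all tested genes. In 2 members, Ern1 and Derl1, they all lay below, which held for 21.3% of all tested genes.

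**Figure D1:**
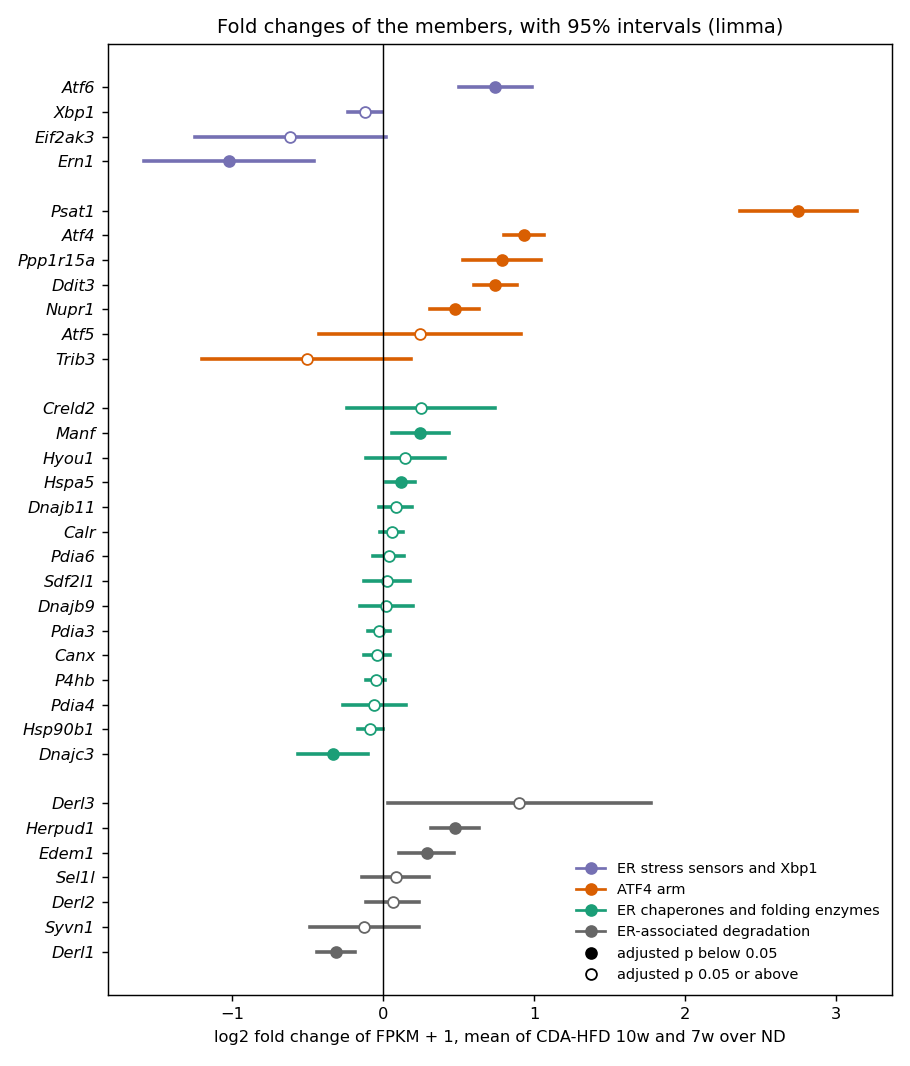
log2 fold change of FPKM + 1 for the mean of both CDA-HFD groups over ND, with 95% intervals from limma on 9 libraries, for 33 members ordered within their role. Filled points passed an adjusted p below 0.05. Asns is not drawn because it is listed at 0 in all ND libraries. The ATF4 arm reaches 2.75 for Psat1, and the chaperones lie between -0.33 and 0.25.

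The ATF4 arm had the largest median difference between the diets. Atf4, Ddit3, Asns, Psat1, Ppp1r15a and Nupr1 were called higher at 10 weeks and again at 7 weeks, where 19.3% of all tested genes were called higher at 10 weeks and 21.3% at 7 weeks. In each of these 6 genes, all CDA-HFD libraries lay above all ND libraries. Leaving out any of the 9 libraries in turn left 6 genes of this arm called higher at each time. Between CDA-HFD 10w and CDA-HFD 7w no gene of the arm passed the test in limma, with 0 of 8 at an unadjusted p below 0.05, and 7 of the 8 had the lower value at 10 weeks.

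Atf4 (chr15:80255184-80257541, plus strand, GRCm38) encodes the leucine-zipper factor at the head of this arm. Its level was 94.0, 103 and 107 FPKM in CDA-HFD 10w libraries, 101, 105 and 109 in CDA-HFD 7w libraries, and 51.8, 51.3 and 58.0 in ND libraries. The 6 CDA-HFD libraries were close to each other and well clear of ND. The ratio of the mean CDA-HFD level to the ND level was 1.92, with a log2 fold change of 0.93 ± 0.06 (SE, n = 6 and 3) and an adjusted p from limma of 1.21e-07. After correction for the upper limit the log2 fold change was 1.07.

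Ddit3 encodes CHOP, a factor induced by ATF4 that is known for its part in ER stress-associated cell death. It had 93.7, 80.4 and 91.4 FPKM in CDA-HFD 10w libraries, 105, 90.0 and 98.3 in CDA-HFD 7w libraries, and 52.4, 57.1 and 55.9 in ND libraries. The lowest CDA-HFD library was thus above the highest ND library. The log2 fold change was 0.74 ± 0.07 (SE) with an adjusted p from limma of 2.24e-06. Of the 890 exon bases of its main gene model, 68 overlap Mars on the opposite strand, and the libraries did not keep strand.

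Psat1 and Asns, enzymes of amino acid synthesis, were low or listed at 0 in ND. Psat1 (chr19:15904678-15947337, minus strand), an aminotransferase of serine synthesis, had 23.6, 24.0 and 26.5 FPKM in CDA-HFD 10w libraries, 29.7, 32.7 and 25.3 in CDA-HFD 7w libraries, and 2.67, 4.66 and 2.41 in ND libraries. The mean CDA-HFD level was 8.30 times the ND level, and the log2 fold change on the FPKM + 1 scale was 2.75 ± 0.18 (SE), with an adjusted p from limma of 1.36e-07. Asns (chr6:7675169-7693254, minus strand), which makes asparagine from aspartate, had 2.99, 9.06 and 7.28 FPKM in CDA-HFD 10w libraries and 10.4, 13.03 and 8.16 in CDA-HFD 7w libraries. It is listed at 0 in all 3 ND libraries. It was called higher with an adjusted p from limma of 3.73e-06. A value of 0 in such a table can be a failed estimate, and Gapdh, which all cells use, is listed at 0.697 to 1.18 FPKM in ND libraries, so no fold is given for Asns. Between the CDA-HFD groups, Asns differed by -0.72 ± 0.35 (log2, SE) with an adjusted p of 0.345, a 95% interval of -1.47 to 0.04.

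Ppp1r15a encodes GADD34, which brings a phosphatase to eIF2alpha and so restores translation. It had 127, 120 and 121 FPKM in CDA-HFD 10w libraries, 123, 117 and 144 in CDA-HFD 7w libraries, and 59.3, 70.5 and 89.4 in ND libraries, a spread within ND that was wider than for Atf4 or Ddit3. Its log2 fold change was 0.79 with an adjusted p from limma of 0.000346. Nupr1, a small stress-induced chromatin protein, averaged 96.7 ± 12.4 FPKM in CDA-HFD 10w, 85.6 ± 4.31 in CDA-HFD 7w and 65.1 ± 4.01 in ND (SD, n = 3 each). Its log2 fold change was 0.47 with an adjusted p of 0.00025.

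The remaining 4 genes of the arm were not called. Trib3, a pseudokinase that feeds back on ATF4, had 0.436, 2.57 and 1.32 FPKM in CDA-HFD 10w libraries, 2.95, 2.54 and 1.71 in CDA-HFD 7w libraries, and 1.93, 3.21 and 3.95 in ND libraries. Its log2 difference was -0.51 ± 0.32 (SE, adjusted p = 0.212), with an interval of -1.20 to 0.19. Without replicate 2 of CDA-HFD 10w, Trib3 was called lower at 10 weeks (adjusted p = 0.0381, against 0.111 with it). Atf5, a factor translated in the same way as ATF4, lay between 0.239 and 1.51 FPKM in all 9 libraries, and its interval of -0.42 to 0.91 was wide. Chac1, an enzyme that degrades glutathione, is listed at 0 in 8 of 9 libraries, with 0.745 FPKM in replicate 2 of CDA-HFD 10w. Phgdh, the dehydrogenase that acts before Psat1 in serine synthesis, had at most 1.56 FPKM in CDA-HFD 10w libraries, 0.327 in CDA-HFD 7w libraries and 1.83 in ND libraries, and was not tested. Of these 2 enzymes of serine synthesis, Psat1 was called higher and Phgdh stayed below 2 FPKM in every library.

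**Figure D2:**
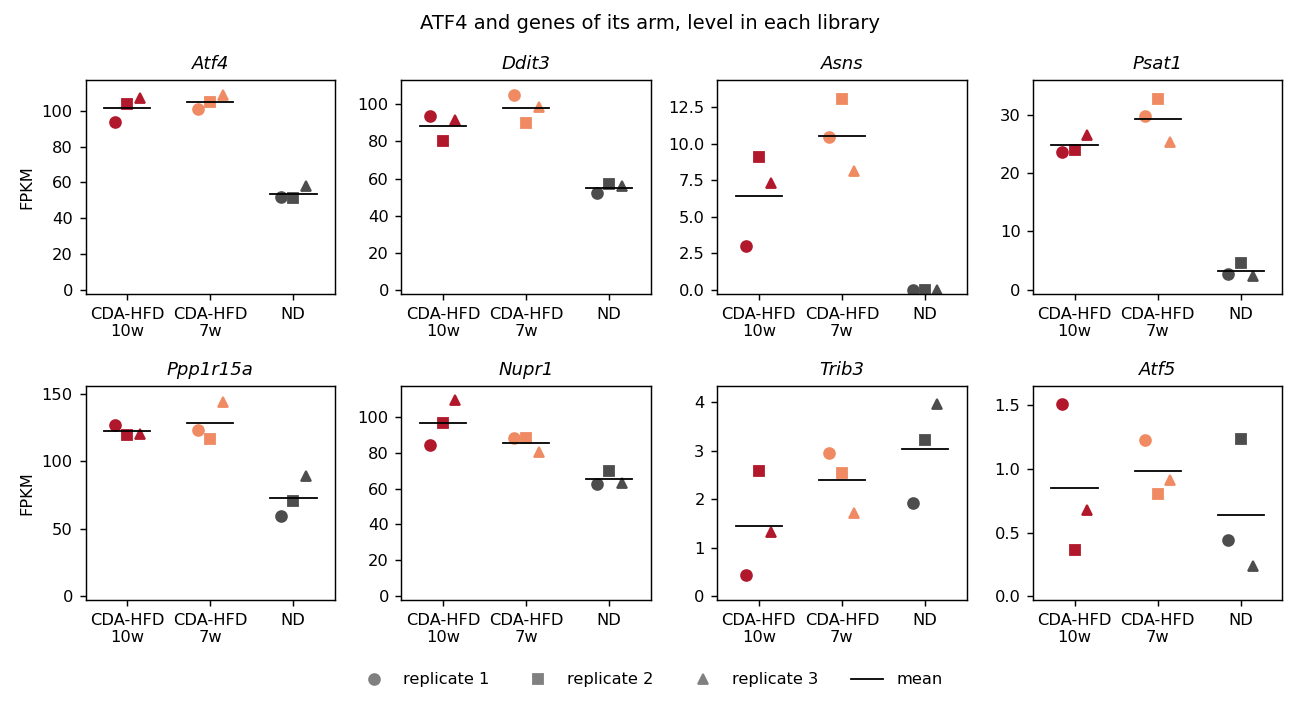
FPKM of 8 genes of the ATF4 arm in each of the 9 libraries. Symbols mark the replicate number within a group and black lines the group mean, left out for Asns in ND. In the first 6 panels every CDA-HFD point lies above every ND point, and in Trib3 and Atf5 the groups overlap.

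The promoters of 32 members are in the RefSeq table used here (GRCm38.p6, windows of 300 bases, 250 before and 50 after the start). The ATF4 site, the amino acid response element, was searched as TGATGNAA on both strands. It occurred in the windows of 4 of the 10 genes of the ATF4 arm (Asns, Chac1, Nupr1 and Trib3), in Herpud1 among the other members, and in 3.97% of all 32851 windows. Of these 4 genes, Asns and Nupr1 were called higher, Trib3 was not, and Chac1 was almost undetected. No match was found in these windows of Atf4, Ddit3, Psat1 and Ppp1r15a, which says only that these letters are absent there. The Asns window is shown whole because Asns was detected in all CDA-HFD libraries and listed at 0 in ND. It spans chr6:7693160-7693459, is written along the minus strand on which the gene lies, and has the match in capitals, beginning 23 bases before the start.
Asns: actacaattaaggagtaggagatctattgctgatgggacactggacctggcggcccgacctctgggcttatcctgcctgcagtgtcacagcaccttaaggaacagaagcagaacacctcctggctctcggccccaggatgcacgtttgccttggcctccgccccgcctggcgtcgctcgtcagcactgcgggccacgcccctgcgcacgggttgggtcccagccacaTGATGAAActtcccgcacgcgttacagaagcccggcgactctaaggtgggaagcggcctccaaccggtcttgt
The other 3 matches are given with 8 bases on each side, written along the strand on which the motif reads, which in all 3 is opposite to the gene.
Chac1, chr2:119351041-119351064: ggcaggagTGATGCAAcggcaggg
Nupr1, chr7:126625565-126625588: gccctgtcTGATGCAAtctggccc
Trib3, chr2:152344031-152344054: cgcccggcTGATGTAAacctgagc
Ppp1r15a held a cAMP response element, TGACGTCA, found in 1.79% of all windows.

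Other genes known as ATF4 targets were taken as lists, to set the arm beside them. Of 14 tested genes for amino acid synthesis, folate metabolism and amino acid transport, 6 were called higher and 2 lower against ND, with a median log2 fold change of 0.04. Over all tested genes these shares were 22.8% higher and 24.3% lower. The cystine transporter Slc7a11 averaged 10.8 ± 2.91 FPKM in CDA-HFD 10w, 18.8 ± 3.42 in CDA-HFD 7w and at most 0.101 in any ND library. The glutamine transporter Slc1a5 averaged 62.0 ± 4.17 FPKM in CDA-HFD 10w, 50.2 ± 4.84 in CDA-HFD 7w and 14.4 ± 1.32 in ND (adjusted p = 1.86e-08, limma). The mitochondrial folate enzyme Mthfd2 and the leucine transporter Slc7a5 were called higher as well (log2 fold changes 1.67 and 1.64). Gpt2 and Aldh18a1, enzymes of alanine and proline synthesis, were called lower (-1.20 and -1.003). Among 12 tRNA synthetases, 3 were called higher, with Tars at 0.55, and 2 lower, with Aars at -0.33.

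A list of stress regulators known to be under ATF4 or CHOP was split in the same way, with 6 of 15 tested genes called higher and 4 lower. Over all tested genes 22.8% were called higher and 24.3% lower. Gdf15, a secreted stress cytokine, averaged 158 ± 16.1 FPKM in CDA-HFD 10w, 197 ± 27.8 in CDA-HFD 7w and 9.73 ± 2.98 in ND (SD, n = 3 each). Atf3, a further leucine-zipper factor, averaged 229 ± 8.92 FPKM in CDA-HFD 10w, 241 ± 9.49 in CDA-HFD 7w and 54.6 ± 10.1 in ND. Sesn2, a stress-induced regulator of mTORC1, went the other way, with 25.9 ± 3.89 FPKM in CDA-HFD 10w, 30.7 ± 6.51 in CDA-HFD 7w and 90.0 ± 8.04 in ND (log2 fold change -1.65, adjusted p = 9.27e-07). Jdp2 and Cebpg were also called lower, and Ero1l and Bcl2l11 higher. Of the 11 genes for eIF2 kinases, their adaptor, phosphatase subunits and eIF2B, 2 were called higher and 4 lower. Eif2ak4, Eif2ak2 and Eif2ak1, which encode GCN2, PKR and HRI, were called lower with log2 fold changes of -0.77, -0.45 and -0.23, and the adaptor Nck1 with -1.02.

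Atf3 belongs with the immediate early and dissociation response genes, whose levels moved with the ATF4 arm. Of 20 genes on that list, 15 were called higher against ND and none lower, and their summed level was 2648 to 2720 FPKM in CDA-HFD 10w, 2647 to 2908 in CDA-HFD 7w and 1546 to 1961 in ND libraries. The make-up of the sorted cells moved as well. Of 12 Kupffer cell markers 11 were called lower, with sums of 1102 to 1293 FPKM in CDA-HFD 10w, 1132 to 1360 in CDA-HFD 7w and 2522 to 2659 in ND. Of 10 tested monocyte markers 8 were called higher, with sums of 913 to 956 FPKM in CDA-HFD 10w, 801 to 905 in CDA-HFD 7w and 251 to 267 in ND, and no Kupffer cell or monocyte marker was at 0 in all libraries of a group. Most of each ND monocyte sum was Plac8, at 213 to 226 FPKM, against 181 to 233 in CDA-HFD 10w and 149 to 161 in CDA-HFD 7w. All 8 markers of lipid-associated macrophages were called higher. The part of these shifts in the levels of the members was not tested, and in sorted bulk cells a different mix of cells and a different RNA level per cell cannot be told apart. Of 7 general macrophage markers none was called higher and 5 were called lower, with sums of 1676 to 1753 FPKM in CDA-HFD 10w, 1786 to 1837 in CDA-HFD 7w and 1923 to 2031 in ND, so macrophage markers were abundant in every group.

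The sensor genes differed from one another in direction. Atf6 rose, Ern1 fell, and Eif2ak3 and Xbp1 did not pass the test. Atf6 (chr1:170704674-170867771, minus strand), the membrane-bound factor that is freed by cleavage, had 36.1, 39.1 and 30.8 FPKM in CDA-HFD 10w libraries, 28.9, 29.5 and 32.4 in CDA-HFD 7w libraries, and 19.5, 17.1 and 20.9 in ND libraries. All 6 CDA-HFD libraries were above all ND libraries, and the log2 fold change was 0.74 ± 0.11 (SE) with an adjusted p from limma of 0.00017.

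Ern1 (chr11:106394650-106487852, minus strand) encodes IRE1, the kinase and endonuclease that splices Xbp1. It had 7.77, 8.15 and 8.72 FPKM in CDA-HFD 10w libraries, 7.91, 3.09 and 8.44 in CDA-HFD 7w libraries, and 19.5, 13.9 and 13.2 in ND libraries. Its log2 fold change was -1.02 ± 0.26 (SE) with an adjusted p from limma of 0.0062. At 10 weeks alone the adjusted p was 0.0442, and leaving out replicate 1, 2 or 3 of CDA-HFD 10w or of ND took it to between 0.0569 and 0.16.

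Eif2ak3 (chr6:70844515-70905245, plus strand), which encodes PERK, had 5.55, 15.9 and 13.2 FPKM in CDA-HFD 10w libraries, 6.91, 10.7 and 8.24 in CDA-HFD 7w libraries, and 10.4, 18.3 and 17.9 in ND libraries. The groups overlapped, and the log2 difference of -0.62 had a wide interval of -1.25 to 0.02 (adjusted p = 0.102, limma). Without replicate 2 of CDA-HFD 10w the adjusted p was 0.0488, and at 7 weeks Eif2ak3 was called lower without replicate 1 of CDA-HFD 10w or of ND (adjusted p = 0.0231 and 0.0455), or with only the compared groups in the fit (0.0298). Xbp1 (chr11:5520659-5525893, plus strand) had 119, 129 and 132 FPKM in CDA-HFD 10w libraries, 138, 136 and 119 in CDA-HFD 7w libraries, and 135, 141 and 143 in ND libraries. Its log2 difference was -0.12 ± 0.05 (SE), with an adjusted p of 0.0791, and without replicate 3 of CDA-HFD 7w it was called lower at 10 weeks (adjusted p = 0.0299). The values do not separate the spliced from the unspliced Xbp1 mRNA.

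Around these sensors, a list of proteases and related membrane-bound factors gave 1 gene called higher and 5 lower of 10. Over all tested genes 22.8% were called higher and 24.3% lower. Creb3l1 averaged 7.87 ± 2.01 FPKM in CDA-HFD 10w, 7.95 ± 1.46 in CDA-HFD 7w and 2.75 ± 0.233 in ND. Creb3l3, a factor best known from hepatocytes, averaged 4.38 ± 1.20 FPKM in CDA-HFD 10w, 2.56 ± 0.798 in CDA-HFD 7w and 15.1 ± 2.37 in ND. Mbtps1, the protease that makes the first cut in ATF6, was called lower with a log2 fold change of -0.56. Most hepatocyte markers were also lower against ND, with 9 of 11 tested called lower and 1 higher. Their sums were 313 to 369 FPKM in CDA-HFD 10w, 371 to 385 in CDA-HFD 7w and 515 to 793 in ND libraries. Of these sums, Trf alone held 207 to 214 FPKM in CDA-HFD 10w, 222 to 244 in CDA-HFD 7w and 262 to 280 in ND libraries. The part of hepatocyte RNA in the values of this list was not tested.

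The ER chaperones and folding enzymes did not move as the ATF4 arm did. Against ND, the mean of both CDA-HFD groups was called higher for Hspa5 and Manf and lower for Dnajc3, and 12 of the 15 genes did not pass the test. Over all tested genes 22.8% were called higher and 24.3% lower, and of those averaging at least 40 FPKM 36.3% and 24.9%. No chaperone separated all 6 CDA-HFD from all 3 ND libraries, where 19.3% of all tested genes lay above and 21.3% below. At 10 weeks none of the 15 was called higher in limma (0 at an unadjusted p below 0.05) and 5 were called lower. Called lower at 10 weeks were 20.6% of all tested genes and 23.0% of those averaging at least 40 FPKM. After correction for the upper limit, 2 of the 15 were called lower at 10 weeks, beside 21.5% of those abundant genes. At 7 weeks 3 were called higher and none lower (0 at an unadjusted p below 0.05), where 21.3% of all tested genes and 36.1% of those averaging at least 40 FPKM were called higher and 22.4% of all were called lower. The 3 of 15 called higher at 7 weeks are thus no more than these shares. The median log2 fold change of the 15 genes was -0.06 at 10 weeks and 0.11 at 7 weeks, both against the same ND libraries, and that of all tested genes was -0.02 and -0.03.

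Hspa5 (chr2:34771970-34777547, plus strand) encodes BiP, the main ER chaperone, which also holds the sensors inactive. It had 235, 248 and 241 FPKM in CDA-HFD 10w libraries, 280, 273 and 247 in CDA-HFD 7w libraries, and 220, 234 and 248 in ND libraries. Only replicates 1 and 2 of CDA-HFD 7w lay above all ND libraries. The log2 fold change of the mean CDA-HFD level was 0.12 ± 0.04 (SE) with an adjusted p from limma of 0.0447, and this call was lost in 11 of 20 alternative settings (adjusted p of 0.0505 to 0.225), among them without replicate 2 or 3 of CDA-HFD 10w, 1 or 2 of CDA-HFD 7w and 1 or 2 of ND. After correction for the upper limit the log2 fold change was 0.28 with an adjusted p of 0.00702. At 7 weeks alone the log2 fold change was 0.19 (adjusted p = 0.00999), and 0.37 after that correction. At 10 weeks it was 0.05 (adjusted p = 0.503), and 0.19 after correction (adjusted p = 0.0845).

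The J-domain partners of BiP and its exchange factor had values of their own. Dnajc3, which encodes a co-chaperone that also restrains PERK and PKR, averaged 42.3 ± 3.27 FPKM in CDA-HFD 10w, 57.7 ± 10.7 in CDA-HFD 7w and 62.2 ± 3.87 in ND. At 10 weeks it fell by 0.55 on the log2 scale (adjusted p = 0.00374, limma), the largest change of any chaperone at that time. Its call for the mean of both groups was lost without replicate 2 or 3 of ND (adjusted p = 0.0655 and 0.0844). Dnajb9, Dnajb11, Sdf2l1 and the exchange factor Hyou1 did not pass the test at either time. Manf, a secreted factor induced by ER stress, averaged 66.3 ± 6.12 FPKM in CDA-HFD 10w, 76.8 ± 9.89 in CDA-HFD 7w and 59.9 ± 3.52 in ND, and was called higher at 7 weeks (log2 fold change 0.35, adjusted p = 0.0134) but not at 10 weeks (0.14, adjusted p = 0.277). Without replicate 1 or 2 of CDA-HFD 7w that call was lost (adjusted p = 0.0627 and 0.0569). Creld2, also secreted upon ER stress, spread from 87.5 to 132 FPKM in CDA-HFD 10w, from 91.0 to 162 in CDA-HFD 7w and from 91.4 to 106 in ND libraries.

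The other genes called lower at 10 weeks were Hsp90b1, Canx, Pdia3 and P4hb. Hsp90b1, the ER member of the HSP90 family, averaged 170 ± 2.92 FPKM in CDA-HFD 10w, 206 ± 10.4 in CDA-HFD 7w and 199 ± 9.17 in ND, and its log2 fold change at 10 weeks was -0.22 (adjusted p = 0.00144). Canx, a lectin chaperone, and the disulfide isomerases Pdia3 and P4hb had log2 fold changes of -0.13, -0.11 and -0.09. These 3 calls were lost after correction for the upper limit, with adjusted p of 0.0705, 0.124 and 0.174, and the call on Canx was lost without 4, that on Pdia3 without 7 and that on P4hb without 6 of the 9 libraries left out in turn. The lectin chaperone Calr was called higher at 7 weeks (log2 fold change 0.12, adjusted p = 0.0272), and was not without replicate 1 or 2 of CDA-HFD 7w or replicate 1 of ND (adjusted p of 0.0817 to 0.107). After correction for the upper limit its log2 fold change at 7 weeks was 0.19. Of the 2825 exon bases of Hsp90b1, 415 lie under a pseudogene on the opposite strand.

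**Figure D3:**
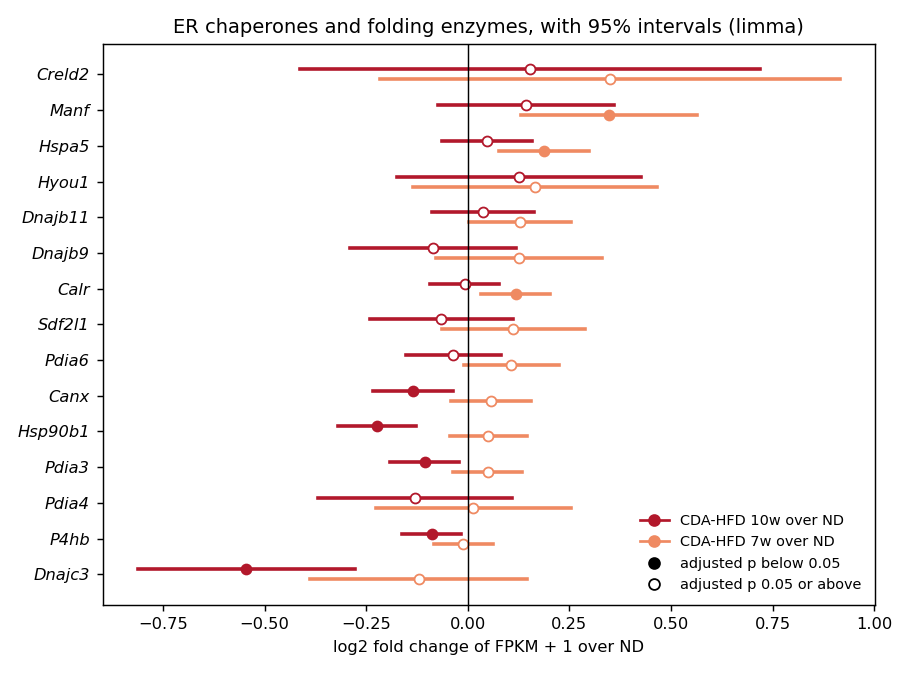
log2 fold change of FPKM + 1 against ND for the 15 ER chaperones and folding enzymes, CDA-HFD 10w and CDA-HFD 7w each over the same 3 ND libraries, with 95% intervals from limma. Filled points passed an adjusted p below 0.05. For every gene the 10-week value lies left of the 7-week value, and 5 genes at 10 weeks and 3 at 7 weeks passed the test.

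Compared directly, CDA-HFD 10w was below CDA-HFD 7w for all 15 chaperones, with a median log2 difference of -0.15. Of all tested genes 51.0% were lower at 10 weeks, and of the 3627 tested genes that averaged at least 40 FPKM, as all 15 chaperones did, 62.4%. Without replicate 2 of CDA-HFD 7w, Hyou1 turned to 0.098 and 14 of 15 were lower. All 15 were lower with each of the 3 other scalings, and after correction for the upper limit, beside 57.1% of the abundant genes. In 6 of the 15 genes (Hsp90b1, Calr, Canx, Pdia3, P4hb and Dnajc3) every CDA-HFD 10w library lay below every CDA-HFD 7w library, which held for 10.8% of all tested genes and 19.0% of the abundant ones. Only Hsp90b1 passed the test of the difference, with a log2 difference of -0.27 ± 0.04 (SE) and an adjusted p from limma of 0.0419, where 0.0255% of all tested genes were called lower and 0.102% higher. That call was lost in 14 of 21 alternative settings, with adjusted p of 0.0535 to 0.206. In limma the sensors and the degradation genes held no call between the 2 times either, with 0 of 4 and 0 of 7 at an unadjusted p below 0.05. Of the 15 chaperones 10 were lower at an unadjusted p below 0.05, as were 8.11% of all tested genes and 16.1% of the abundant ones.

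Single libraries shifted the chaperones as a block. Replicate 3 of CDA-HFD 7w had the lowest value of its group in all 15 chaperones and in all 7 degradation genes, against 34.2% of all tested genes and 48.5% of the abundant ones. Replicate 1 of CDA-HFD 10w was the lowest of its group in 10 of 15 chaperones and 7 of 7 degradation genes, against 37.6% of all tested genes. Replicate 1 of ND was the lowest in 14 of 15 chaperones, against 34.1%, but in only 2 of 7 degradation genes. The summed level of the 15 chaperones was 1917, 2014 and 2058 FPKM in CDA-HFD 10w libraries, 2336, 2365 and 2022 in CDA-HFD 7w libraries, and 1992, 2117 and 2120 in ND libraries. The third 7-week library therefore had a chaperone level like those of the 10-week and ND libraries. In the ATF4 arm, replicate 3 of CDA-HFD 7w was the lowest of its group in 4 of 8 genes and the highest in 2. Replicate 1 of CDA-HFD 10w was the lowest in 5 of 8 and the highest in 3, and replicate 1 of ND the lowest in 5 of 8 and the highest in 1.

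The count of chaperones called at 7 weeks rested on replicate 3 of CDA-HFD 7w. As this library was the lowest of its group in all 15, leaving it out raises every 7-week chaperone mean by construction. With all libraries, 36.1% of the genes averaging at least 40 FPKM were called higher at 7 weeks. That share was not computed without replicate 3. Without replicate 3 of CDA-HFD 7w, 9 of the 15 were called higher than ND at 7 weeks, where 19.8% of all genes tested in that setting were called higher. Of these, Creld2, Dnajb11, Hyou1, Pdia4, Pdia6 and Sdf2l1 passed the test that they missed with all libraries (adjusted p of 0.015 to 0.0478). Without replicate 1 or replicate 2 of the same group, 1 was called. Over all 34 tested members the count called at 7 weeks was 22 without replicate 3, against 14 with all libraries. This library also differed from the others of its group in cell markers. It had the highest value of its group in 10 of 12 Kupffer cell markers, with a sum of 1360 FPKM against 1254 and 1132 in replicates 1 and 2, and the lowest in 9 of 11 monocyte markers, with a sum of 801 FPKM against 902 and 905. Its sum of immediate early and dissociation response genes was the highest of the group, 2908 FPKM against 2770 and 2647. Their part in the chaperone levels was not tested. Its estimated depth, 5600000 reads, was within the range of its group.

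**Figure D4:**
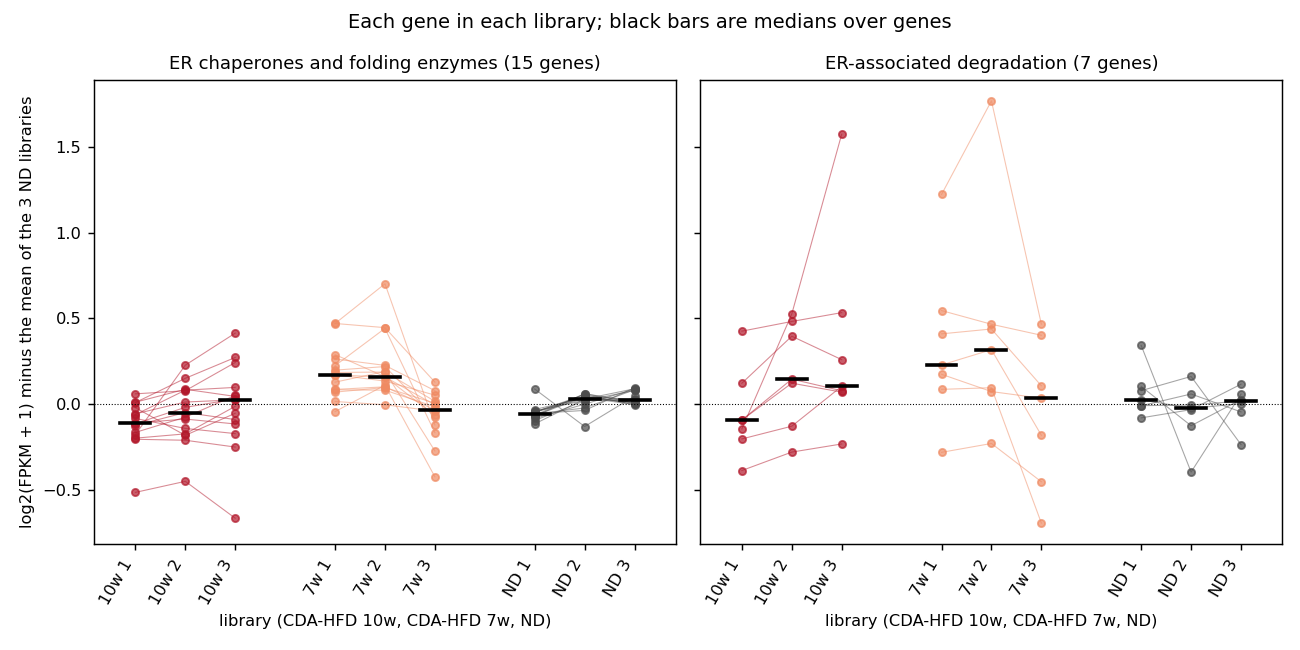
log2(FPKM + 1) minus the ND mean for the 15 chaperones (left) and 7 degradation genes (right) in each library. Points are genes, thin lines join a gene across the libraries of a group, and black bars are medians. Replicate 3 of CDA-HFD 7w and replicate 1 of CDA-HFD 10w sit lowest within their groups in both panels.

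Chaperone promoters carry the ER stress response element (ERSE), read as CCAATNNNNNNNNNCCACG and bound by NF-Y together with ATF6 or XBP1. Searched on both strands, it occurred in the windows of 7 of 13 chaperones and 2 of 6 degradation genes, in none of the ATF4 arm, and in 0.119% of all windows. The shorter ERSE-II, ATTGGNCCACG, occurred in Dnajb11 and Herpud1 and in 0.0365% of all windows, and the XBP1 element TGACGTGG in no member window and in 0.676% of all. The Hspa5 window is shown whole because BiP is the reference gene of this class. It spans chr2:34771840-34772139 on the plus strand with the match in capitals, beginning 65 bases before the start.
Hspa5: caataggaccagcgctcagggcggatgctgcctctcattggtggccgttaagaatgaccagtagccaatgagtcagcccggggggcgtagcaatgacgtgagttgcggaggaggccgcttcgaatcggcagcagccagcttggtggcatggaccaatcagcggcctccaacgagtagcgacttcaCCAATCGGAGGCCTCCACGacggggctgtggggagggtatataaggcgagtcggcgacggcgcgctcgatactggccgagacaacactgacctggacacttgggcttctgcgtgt
The matches of the other chaperones follow with 8 bases on each side, each along the strand on which the motif reads, with the motif in capitals.
Hsp90b1, nearer match, chr10:86705525-86705559: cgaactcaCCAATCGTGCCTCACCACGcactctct
Hsp90b1, farther match, chr10:86705630-86705664: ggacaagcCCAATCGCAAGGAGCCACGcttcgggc
Calr, chr8:84847067-84847101: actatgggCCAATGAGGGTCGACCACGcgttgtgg
Canx, chr11:50325792-50325826: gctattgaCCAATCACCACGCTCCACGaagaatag
Pdia6, chr12:17266483-17266517: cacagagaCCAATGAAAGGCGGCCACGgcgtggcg
Dnajc3, chr14:118937819-118937853: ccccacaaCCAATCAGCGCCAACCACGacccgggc
Creld2, chr15:88819512-88819546: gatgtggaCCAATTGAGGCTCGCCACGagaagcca
Dnajb11, ERSE-II, chr16:22857844-22857870: cggcggcgATTGGCCCACGcctggctg
Of the chaperones with ERSE, Dnajc3, Canx and Hsp90b1 were called lower at 10 weeks and none at 7 weeks, and Hspa5 and Calr were called higher at 7 weeks and not at 10 weeks. These genes were not tested against each other.

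The degradation genes were split. Herpud1, an ER membrane protein that organizes the ligase complex, had 119, 124 and 129 FPKM in CDA-HFD 10w libraries, 130, 123 and 117 in CDA-HFD 7w libraries, and 93.7, 99.3 and 75.1 in ND libraries. All CDA-HFD libraries lay above all ND libraries, and the log2 fold change was 0.47 ± 0.07 (SE) with an adjusted p from limma of 0.000226. Herpud1 was the member whose promoter window held both the ATF4 motif and ERSE-II. The window spans chr8:94386179-94386478 on the plus strand, with the ATF4 motif read from the opposite strand as the first run of capitals and ERSE-II as the second.
Herpud1: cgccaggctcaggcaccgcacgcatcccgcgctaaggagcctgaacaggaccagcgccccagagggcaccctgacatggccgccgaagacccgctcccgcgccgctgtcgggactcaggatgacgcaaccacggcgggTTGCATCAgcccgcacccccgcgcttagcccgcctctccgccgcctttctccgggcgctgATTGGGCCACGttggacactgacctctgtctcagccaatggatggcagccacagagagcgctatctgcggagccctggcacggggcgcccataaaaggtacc

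Edem1, a lectin that directs misfolded glycoproteins to degradation, averaged 63.8 ± 6.15 FPKM in CDA-HFD 10w, 66.6 ± 8.29 in CDA-HFD 7w and 53.0 ± 0.559 in ND, with a log2 fold change of 0.29 (adjusted p = 0.0142, limma). Its call at 7 weeks was lost without replicate 1 or 2 of CDA-HFD 7w or replicate 1 of ND, and at 10 weeks (adjusted p = 0.0524) it passed the test in 8 of 21 alternative settings, with the upper-limit correction among them (0.0455). Derl1, a channel component of the same machinery, was lower, with 85.5 ± 4.71 FPKM in CDA-HFD 10w, 84.3 ± 6.78 in CDA-HFD 7w and 106 ± 1.84 in ND, a log2 fold change of -0.31 and an adjusted p of 0.000689. Its relative Derl2, the ligase Syvn1 and its partner Sel1l did not pass the test. Derl3 had 0.569, 1.50 and 4.17 FPKM in CDA-HFD 10w libraries, 3.05, 4.92 and 1.40 in CDA-HFD 7w libraries, and 1.20, 0.318 and 0.806 in ND libraries (adjusted p = 0.0832), and was called higher without replicate 1 of CDA-HFD 10w (adjusted p = 0.0314) or replicate 3 of CDA-HFD 7w (0.0447). Derl3 and several chaperones are abundant in plasma cells. The plasma cell gene Jchain was at 0.424, 0 and 0 FPKM in CDA-HFD 10w libraries, 0.671, 0 and 0 in CDA-HFD 7w libraries, and 2.15, 0 and 3.94 in ND libraries. Of 7 tested B cell and plasma cell markers, 2 were called higher and 4 lower, with sums of 69.2 to 81.2 FPKM in CDA-HFD 10w, 77.4 to 98.4 in CDA-HFD 7w and 25.4 to 45.0 in ND libraries, and their part in these levels was not tested.

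Other ER genes were taken as 3 further lists. Of all tested genes, 22.8% were called higher and 24.3% lower against ND, and of those averaging at least 40 FPKM 36.3% and 24.9%. Of 24 genes for folding and glycoprotein quality control, 4 were called higher and 7 lower. The thioredoxin-related Tmx4 averaged 14.3 ± 4.82 FPKM in CDA-HFD 10w, 17.4 ± 4.16 in CDA-HFD 7w and 4.07 ± 0.239 in ND. Sil1, an exchange factor for BiP, averaged 57.1 ± 1.60 FPKM in CDA-HFD 10w, 49.4 ± 1.08 in CDA-HFD 7w and 97.0 ± 3.02 in ND (adjusted p = 9.77e-08). Of 26 genes for translocation into the ER, signal peptide removal and glycan transfer, 9 were called higher and 2 lower, all with small changes, as for Sec61g (0.28), Stt3b (0.27), Srprb (0.23) and Ssr2 (0.17). In this list 23 of 26 genes were lower in CDA-HFD 10w than in CDA-HFD 7w, none past the test. This held for 51.0% of all tested genes and 62.4% of those averaging at least 40 FPKM. Replicate 3 of CDA-HFD 7w was again the lowest of its group in 20 of 26, against 34.2% of all tested genes and 48.5% of those abundant ones. Of 20 further degradation genes 2 were called higher and 7 lower.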

How the data were processed

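Liver macrophages of 9 mice had been profiled by RNA-seq (SMART-Seq HT cDNA, Nextera XT, unstranded single-end reads of 75 bases). Duplicates had been removed with Picard, and gene values came from Cufflinks or featureCounts, per the study's methods. The submitters' processing notes name Trimmomatic 0.36.0, HISAT2 2.2.1, featureCounts 2.0.1 and the build GRCm38 (mm10). The authors deposited FPKM by gene symbol. Their methods speak of TPM, but the column totals ranged from 444816 to 458788, so the values were treated as FPKM and no count model was used.

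Of 24776 entries, 1 incomplete entry was left out and the values of 257 symbols with several entries were summed. Genes reaching 1 FPKM in 3 or more of the libraries entered limma 3.58.1 (R 4.3.3, trend and robust, tested on simulated data) on log2(FPKM + 1), in 1 model of 9 libraries and 3 group means, two-sided, with Benjamini-Hochberg adjustment over 11783 genes. Groups came from the sample labels, and the columns headed naive were taken as the ND libraries, the 1 control group in the labels. Depth was estimated from the steps of low values (assumed fragment of 200 bases, search of 3000000 to 10000000 reads), of which 70.3% to 76.5% lay within 0.1 of a whole read. The upper limit M is the FPKM of a gene with 1 read at every start on both strands. None of 9584 genes with transcripts of at least 2000 bases exceeded it, and the correction replaced x by -M ln(1 - x/M). Gene models were from GENCODE M21 and promoter windows from RefSeq.

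Sensors, Xbp1, Atf4, Ddit3, Hspa5 and members called with an absolute log2 fold change of at least 1 were to be given in every library, and from other lists up to 4 genes per direction that separated the diets. Ppp1r15a, Trib3, Herpud1, Derl3 and Jchain are also shown in every library, chosen after their values were seen. The members and all lists were chosen with earlier results of these data known. Alternatives covered the pseudocount, filter, scaling, variance model, libraries fitted, replicate block, upper limit, entries per symbol and each library left out.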

Additional observations from a re-analysis of the deposited data

Results flagged for a closer look

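Hsp90b1 was the member whose level differed between the 2 CDA-HFD times by the test of the difference itself. The log2 difference of CDA-HFD 10w minus CDA-HFD 7w was -0.2734 ± 0.04 (SE, limma, adjusted p = 0.0419), with 172, 171 and 167 FPKM in CDA-HFD 10w libraries and 211, 213 and 194 FPKM in CDA-HFD 7w libraries. It was lower in each of the 3 CDA-HFD 10w libraries than in any CDA-HFD 7w library. The call did not hold in 14 of 21 alternative settings, where the log2 difference stayed between -0.36 and -0.19. After correction for the upper limit, which was lowest in CDA-HFD 10w libraries, the difference was -0.36 (adjusted p = 0.0605). The part of the pseudogene that overlaps its exons was not tested.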

How the results depend on the processing

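Of the 14 members called for mean CDA-HFD against ND, 11 (Asns, Atf4, Atf6, Ddit3, Derl1, Edem1, Ern1, Herpud1, Nupr1, Ppp1r15a and Psat1) were called with the same direction in all 20 alternative settings. The calls on Hspa5, Manf and Dnajc3 were lost in 11, 9 and 3 of them. Calr passed the test with the upper-limit correction (adjusted p = 0.042), and quantile normalization brought in Xbp1 (0.0135), Hsp90b1 (0.00525) and P4hb (0.00548), all lower. Leaving out 1 library at a time gave 11 to 15 members called for the mean, 11 to 17 at 10 weeks and 11 to 22 at 7 weeks, the 22 without replicate 3 of CDA-HFD 7w. Between CDA-HFD 10w and 7w, the 1 call became 0 with a pseudocount of 0.1, no filter on low values, quantile normalization, a common total, no trend and robust options, only the compared groups, or the upper-limit correction, and leaving out 1 library gave 0 to 1.

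In the comparison of mean CDA-HFD with ND, signs turned in 5 members that were not called in that comparison. These were Pdia6 (-0.004349) and Sdf2l1 (-0.02052) with quantile normalization. Without 1 library, Pdia4 ranged from -0.1018 to 0.01409, Dnajb9 from -0.02063 to 0.06818, Sdf2l1 from -0.01095 to 0.07133 and Syvn1 from -0.1914 to 0.006137. The causes were not tested.

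The labels do not say whether replicate numbers pair the samples. Over the tested genes, deviations from the group means correlated at -0.062 to 0.092 for equal numbers and -0.104 to 0.078 for others. Such correlations cannot tell whether a part of the genes was paired. With a replicate block, 13 members were called for the mean, 13 at 10 weeks, 15 at 7 weeks and 1 between the times. For the mean, Eif2ak3 entered under the block (adjusted p = 0.0212), while Hspa5 (0.0644) and Manf (0.0526) left. Eif2ak3 also entered at 7 weeks (0.0166), and Pdia3 (0.0618) and P4hb (0.0709) left at 10 weeks. Depth limits low members, as 1 read is worth 0.0963 FPKM for Trib3 and 0.157 for Derl3. Animals were few, and p-values rest on 3 per group.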
